A study of Mus musculus with 18 samples.

Results

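This account covers 10 genes that encode integrin chains, out of 50600 genes counted in regulatory T cells (Tregs) of mice. The genes were chosen by symbol, by a rule that uses no measured value but was set with earlier results of these data known. They are 5 β chain genes, Itgb1, Itgb2, Itgb3, Itgb7 and Itgb8, and 5 α chain genes, Itga4, Itga6, Itgae, Itgal and Itgav. All 10 passed the filter on low counts in every comparison.

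Integrins are cell surface receptors made of 1 α and 1 β chain, and a chain reaches the surface only when it has paired. They bind counter-receptors on other cells or proteins of the extracellular matrix, and signals inside the cell switch them between a resting and a ligand-binding shape. In Tregs they serve adhesion, homing to tissues and, through the αv-containing pairs, release of active TGF-β from its latent form. The β2 chain pairs with αL to form LFA-1, β7 with α4 in gut homing and with αE (CD103) in retention at epithelia, and β1 with α4 in VLA-4 and with α6 in a laminin receptor.

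The RNA-seq data came from FACS-purified Foxp3+ Tregs of 18 individual mice of strain C57BL/6, and the question was what loss of CD25, the α chain of the IL-2 receptor encoded by Il2ra, does to Tregs of each organ. Thymic CD25 KO Tregs (n = 5) came from mice with floxed CD25 alleles and Foxp3-YFP/Cre, in which Cre is expressed from the Foxp3 locus. These mice were 3–4 weeks old and “cured” of autoimmunity, having received WT splenocytes as neonates. Thymic WT Tregs (n = 5) came from Foxp3/RFP reporter mice of that age, for which no transfer of splenocytes is stated. For the splenic CD25 KO group (n = 4) floxed CD25 was combined with Foxp3eGFP-Cre-ERT2, a Cre in the Foxp3 locus that tamoxifen switches on, and with R26Y, a YFP label of cells in which Cre has acted. Splenic WT Tregs (n = 4) came from reporter mice with intact CD25. Both splenic groups were given tamoxifen at 7–10 weeks of age and were collected 10–14 days later. Thymus and spleen differ at once in mouse model, age, tamoxifen, reporter and the date that the column headers of the count table carry, which is one date for all splenic and another for all thymic libraries, and these cannot be told apart. Within the thymus, CD25 loss comes together with the Foxp3-YFP/Cre line in place of Foxp3/RFP and with the transfer of splenocytes, and these cannot be told apart either.

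Total counts per sample were 20410272 to 23993674 in thymic WT and 17239774 to 21085493 in thymic CD25 KO mice. They were 25258341 to 28570068 in splenic WT and 26017927 to 32639570 in splenic CD25 KO mice. A single gene, Gm26917, held 9.788% to 11.4% of counts in thymic WT and 5.762% to 9.169% in thymic CD25 KO mice. In the spleen it held 11.92% to 14.32% in WT and 9.381% to 10.9% in CD25 KO mice. Its part in the integrin values was not tested. Levels are given in CPM, counts scaled to the normalized size of each library. Cre removes 1 exon of Il2ra, so the rest of the transcript can still be counted. Il2ra fell by 1.90 ± 0.298 (SE) on the log2 scale in thymic CD25 KO Tregs (edgeR quasi-likelihood test, adjusted p = 0.00239) and by 1.49 ± 0.0651 in splenic CD25 KO Tregs (edgeR adjusted p = 1.39e-09). In the thymic CD25 KO group, mice 2 and 4 had higher Il2ra levels (279.9 and 233.9 CPM) than the other 3 (95.9 to 104.9 CPM), while all thymic WT mice were between 524.5 and 682.1 CPM. The 7 Treg and T cell markers, Foxp3 and Il2ra among them, summed to 3010 to 4270 CPM in every sample, and none of them was at 0. Single markers did differ between genotypes. Foxp3 was lower in thymic (-0.74, edgeR adjusted p = 0.00101) and splenic CD25 KO Tregs (-0.55, edgeR adjusted p = 6.9e-06). At FDR < 0.01, 4 of the 7 were lower in the thymus (2.99% of all genes). In the spleen 3 were higher (5.9%) and 2 lower (3.55%). In bulk RNA, fewer cells of a type and less RNA per cell cannot be told apart.

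The members lie on 7 chromosomes of GRCm38, and all are protein-coding. Itgb1 (ENSMUSG00000025809.15, chromosome 8, 128685654–128733200, plus strand), Itgb2 (ENSMUSG00000000290.13, chromosome 10, 77530252–77565708, plus), Itgb3 (ENSMUSG00000020689.4, chromosome 11, 104608000–104670476, plus), Itgb7 (ENSMUSG00000001281.9, chromosome 15, 102215995–102231944, minus) and Itgb8 (ENSMUSG00000025321.14, chromosome 12, 119158022–119238802, minus) are scattered. Of the α chain genes, Itga4 (ENSMUSG00000027009.18, 79255426–79333123), Itga6 (ENSMUSG00000027111.15, 71745616–71858416) and Itgav (ENSMUSG00000027087.11, 83724397–83806916) share chromosome 2 and the plus strand, Itgae lies on chromosome 11 (ENSMUSG00000005947.11, 73090583–73147446, plus) and Itgal on chromosome 7 (ENSMUSG00000030830.18, 127296260–127335138, plus). Exons of Itga4 share 1124 bases with Cerkl on the other strand, and those of Itgav share 634 bases with Gm13684. How strand was used in counting is not given in the sources used here. Both neighbours were low, with at most 9.88 CPM of Cerkl and 9.26 CPM of Gm13684 in any sample.

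RefSeq promoter windows (GRCm38.p6, 250 bases before to 50 after the RefSeq start) were found for 5 of the 10 genes. The 4 printed here belong to members that differed between CD25 KO and WT Tregs. Itga4 was higher in the thymus, and Itgb8 and Itgav were higher in the spleen. Itgb1 was higher in the spleen and lower in the thymus. Capitals mark matches, on either strand, to the motifs searched: TTCNNNGAA (STAT), TGTGGT (RUNX), TGTTTAC (forkhead), GGGCGG (the SP1 GC box) and CCGGAAG (ETS). No motif overlapped another.
Itgb1, chr8:128685404-128685703, plus strand: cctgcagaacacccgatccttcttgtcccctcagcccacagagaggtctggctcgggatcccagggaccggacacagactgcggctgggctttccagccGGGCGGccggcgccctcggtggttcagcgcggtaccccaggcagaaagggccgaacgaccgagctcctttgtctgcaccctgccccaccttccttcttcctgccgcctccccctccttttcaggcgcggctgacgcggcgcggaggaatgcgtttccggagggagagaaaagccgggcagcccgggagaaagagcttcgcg
Itgb8, chr12:119238227-119238526, minus strand: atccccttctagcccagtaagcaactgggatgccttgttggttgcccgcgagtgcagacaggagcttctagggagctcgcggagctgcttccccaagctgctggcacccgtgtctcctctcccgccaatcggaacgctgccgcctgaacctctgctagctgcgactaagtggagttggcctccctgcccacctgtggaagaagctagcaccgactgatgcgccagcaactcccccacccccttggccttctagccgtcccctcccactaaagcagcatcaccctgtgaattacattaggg
Itgav, chr2:83724147-83724446, plus strand: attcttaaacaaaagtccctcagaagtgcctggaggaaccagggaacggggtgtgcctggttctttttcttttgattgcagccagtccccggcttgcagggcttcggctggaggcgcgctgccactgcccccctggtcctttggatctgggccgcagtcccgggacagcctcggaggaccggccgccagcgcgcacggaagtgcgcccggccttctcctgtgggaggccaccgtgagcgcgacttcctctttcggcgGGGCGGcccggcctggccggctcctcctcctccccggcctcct
Itga4, chr2:79255176-79255475, plus strand: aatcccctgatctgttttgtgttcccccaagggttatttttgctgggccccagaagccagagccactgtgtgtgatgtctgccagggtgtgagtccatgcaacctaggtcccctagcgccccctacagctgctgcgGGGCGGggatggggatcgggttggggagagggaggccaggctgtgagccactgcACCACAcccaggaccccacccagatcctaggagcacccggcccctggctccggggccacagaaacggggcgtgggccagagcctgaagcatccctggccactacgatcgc

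The GC box occurred once in the Itgb1 window (first base at -151 from the start), once in that of Itga4 (-114) and once in that of Itgav (8), and is found in 35.7% of all 32851 windows of this length. A RUNX match, read as ACCACA on the printed strand, was present in the Itga4 window alone among these 4 (first base at -60), against 16.8% of all windows. The letters searched for STAT (8.3% of all windows), forkhead (3.65%) and ETS (8.86%) were in none of them, and the Itgb8 window held no match at all. Itgb1 and Itgav both had 67.3% G and C and held 27 and 24 CpG dinucleotides, while the median over all windows is 52.7% G and C and 7 CpG. These matches describe letters, and binding at them was not measured.

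Levels of different chains were compared per kilobase of exon, in CPM per kb. The length is that of all annotated exons of a gene merged, 2770 bases for Itgb7 and 13978 for Itga4, whichever transcripts the cells make. Ranks, shares and ratios between chains depend on it. In thymic WT Tregs the LFA-1 and gut-homing chains led: Itgb2 at 181.1 ± 12.8 (SD, n = 5), Itgb7 at 127.2 ± 7.54 and Itgal at 126.3 ± 4.79 CPM per kb, the ranges of the latter pair overlapping. Itgb1 (39.6 ± 2.21), Itga4 (31.8 ± 5.91), Itga6 (24.6 ± 1.20) and Itgb3 (19.8 ± 4.77) followed, each overlapping its neighbour in this order. Itgae (9.90 ± 1.20), Itgav (8.47 ± 0.952) and Itgb8 (6.85 ± 1.85 CPM per kb) were lowest and also overlapped. The gap from Itgal to Itgb1 and that from Itgb3 to Itgae were the breaks in the order where ranges did not meet, apart from the one between Itgb2 and Itgb7.

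The order was another one in splenic WT Tregs. Itgb7 stood first with 223.7 ± 16.6 (SD, n = 4), above Itgb2 at 176.4 ± 5.82 CPM per kb without overlap. Itgal (160.5 ± 5.38) and Itgb1 (159.8 ± 10.7) came next and overlapped, so Itgb1 made up 18.1% of the summed level of the 10 chains in the spleen and 6.88% in the thymus. In splenic CD25 KO Tregs Itgb1 was the highest of all chains at 267.4 ± 36.5 CPM per kb, or 26.5% of the sum, and did not overlap Itgb7 (205.1 ± 8.40). In thymic CD25 KO Tregs Itgb1 stood at rank 5 with 22.8 ± 1.51 CPM per kb, below Itga4 at 52.8 ± 5.08, and Itgae was last at 3.75 ± 1.75 CPM per kb. Itgb8 was the lowest chain in both splenic groups.

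**Figure D1:**
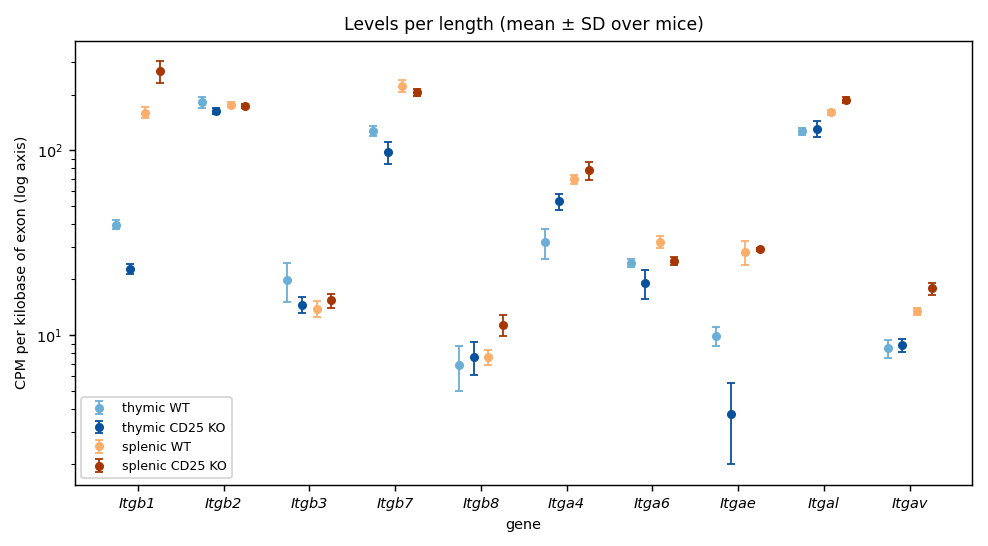
Level of each integrin chain per kilobase of exon (CPM per kb, log axis), with points for the mean and whiskers for the SD over mice in the 4 groups. Itgb2, Itgb7 and Itgal are near or above 100 CPM per kb in every group, whereas Itgb1 runs from 22.8 in thymic CD25 KO to 267.4 in splenic CD25 KO Tregs.

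In the thymus, the CD25 KO group had less Itgb1 and Itgae and more Itga4 than the WT group. Itgb1 fell 1.72-fold, Itgae 2.60-fold, and Itga4 rose 1.68-fold. These 3 of 10 members passed FDR < 0.01 in edgeR's quasi-likelihood test, where 6.16% of the 16986 genes tested did. The members split into 1 higher and 2 lower, and all genes into 3.17% higher and 2.99% lower. The median log2 fold change of the members was -0.24, against -0.0022 over all genes.

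Itgb1, the shared β chain of the VLA family of matrix and VCAM-1 receptors, was at 154.5, 158.0, 153.9, 174.9 and 166.7 CPM in thymic WT mice and at 96.7, 96.8, 82.5, 96.7 and 93.3 CPM in thymic CD25 KO mice. No CD25 KO mouse reached the lowest WT value, and mouse 3 was the lowest of all. The log2 fold change was -0.78 ± 0.0608 (SE, edgeR adjusted p = 1.54e-05). Itgb7, the partner of α4 and αE, was at 337.3, 388.7, 340.0, 347.6 and 347.5 CPM in WT and at 290.9, 299.5, 268.3, 283.8 and 209.6 CPM in CD25 KO mice. Its groups did not overlap either, but at -0.36 ± 0.0857 it missed the threshold (edgeR adjusted p = 0.0126). It gained a call in 6 of 22 alternatives. Among these were DESeq2, the study's method (DESeq2 adjusted p = 0.00135), and 1 fit of all 18 samples (edgeR adjusted p = 0.00142). The genotypes were fully separated for 4 of the 10 members (Itgb1, Itgb7 and Itgae lower, Itga4 higher), and for 16.4% of all genes (7.2% higher, 9.17% lower).

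Itgae, the αE chain (CD103) that binds E-cadherin on epithelium when paired with β7, was at 45.6, 45.4, 36.5, 51.3 and 47.9 CPM in thymic WT mice. In thymic CD25 KO mice it was at 11, 25.2, 14.2, 26.3 and 9.25 CPM. All 5 were below the WT mice, and mice 2 and 4, those with the most Il2ra, had the most Itgae. The log2 fold change was -1.38 ± 0.258 (edgeR adjusted p = 0.00497). Without mice 2 and 4, a choice made after seeing the data, it was -1.98 (edgeR adjusted p = 1.35e-05), and the part of their Il2ra level in the value was not tested. The call was lost when any 1 of WT mouse 2, WT mouse 5, CD25 KO mouse 1 or CD25 KO mouse 3 was left out (edgeR adjusted p from 0.0127 to 0.0159). Haspin lies within Itgae on the other strand and shares no exon base with it. Its levels were 12.5 to 17.4 CPM in WT and 6.15 to 13.3 CPM in CD25 KO mice, again highest in mice 2 and 4, and its part in the Itgae value was not tested.

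Itga4, the α chain of both VLA-4 and the mucosal homing receptor α4β7, went the other way. Its levels were 526.1, 351.4, 403.5, 537.3 and 403.6 CPM in thymic WT and 796.8, 716.4, 747.4, 627.7 and 801.0 CPM in thymic CD25 KO mice. The groups did not overlap, and the log2 fold change was 0.75 ± 0.119 (edgeR adjusted p = 0.00248). Across 16945 genes the thymic log2 fold change ran against the GC content of the transcript (Spearman rho = -0.4, a description across genes), and Itga4 is low in GC, at 41.1%. With the GC trend removed from each library, Itga4 still passed the test, at 0.55 (edgeR adjusted p = 0.00223).

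The other chains did not pass in the thymus. Itga6, a laminin receptor chain, was at 207.8 to 233.0 CPM in WT and 136.2 to 218.1 CPM in CD25 KO mice (log2 fold change -0.35 ± 0.104, edgeR adjusted p = 0.0327). Itgb3, the vitronectin receptor β chain, was at 87.4 to 155.4 and 77.6 to 96.8 CPM (-0.43 ± 0.138, edgeR adjusted p = 0.0419). The LFA-1 chains Itgb2 (-0.14 ± 0.0542) and Itgal (0.06 ± 0.0688) and the αvβ8 chains Itgb8 (0.18 ± 0.185) and Itgav (0.07 ± 0.0836) had edgeR adjusted p-values from 0.0856 to 0.55. Itgb2 was at 506.5 to 604.4 CPM in WT and 480.4 to 522.5 CPM in CD25 KO mice, and Itgal at 783.6 to 860.8 and 710.4 to 914 CPM. Itgb8 was at 54.9 to 98 and 66.4 to 102.7 CPM, and Itgav at 82.5 to 105.4 and 85.9 to 103.6 CPM. All 6 of these had overlapping ranges in WT and CD25 KO mice.

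**Figure D2:**
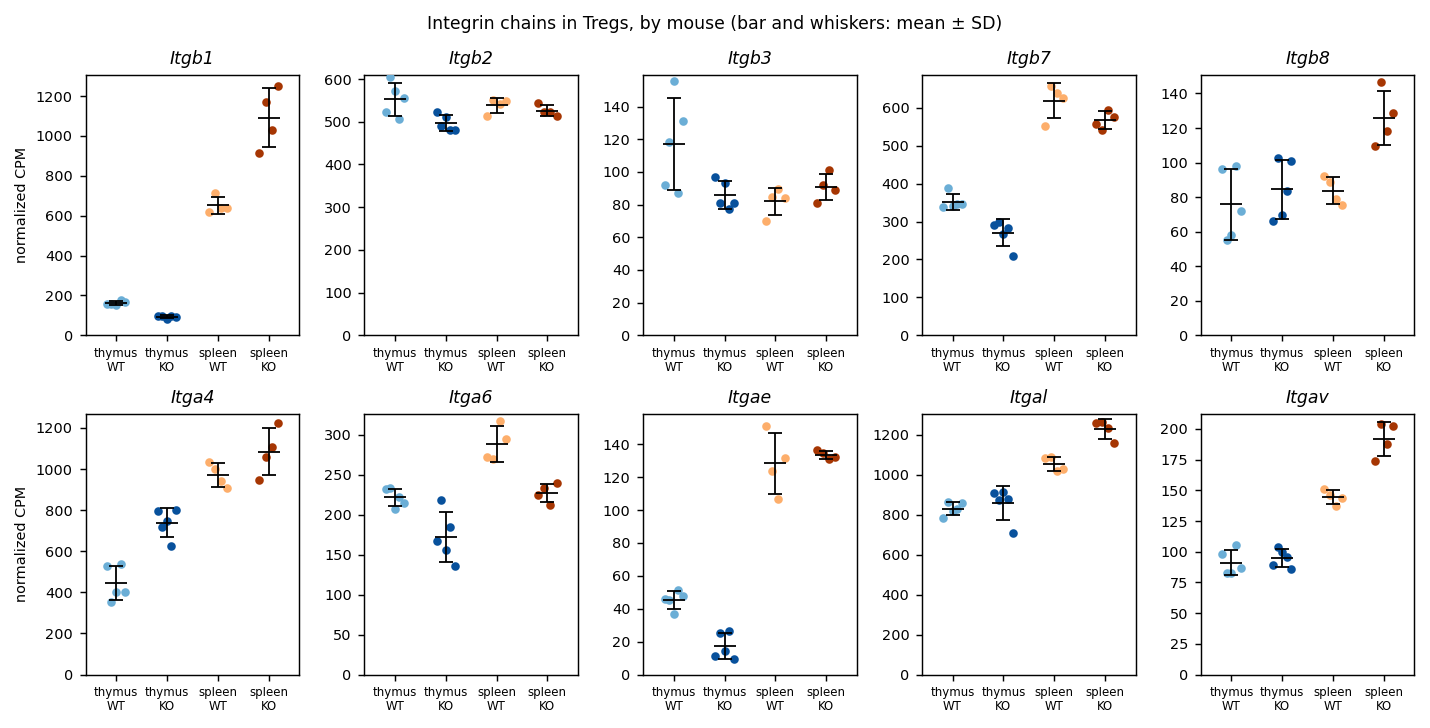
Normalized CPM of each integrin chain in every mouse (points) with the mean and SD of the group (bar and whiskers), one panel for each gene with its own axis from 0. Itgb1 is below the WT mice in thymic CD25 KO Tregs and above them in splenic CD25 KO Tregs, Itgae is lower in thymic CD25 KO mice and at 107 to 151.4 CPM in all splenic mice, and Itga4 is higher in thymic CD25 KO mice.

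In the spleen, CD25 KO Tregs had more Itgb1, Itgb8, Itgav and Itgal and less Itga6 than WT Tregs. These 5 of 10 members passed FDR < 0.01, where 9.45% of 17463 genes did. The members split into 4 higher and 1 lower, and all genes into 5.9% higher and 3.55% lower. The same 5 were the members whose ranges did not overlap, compared with 20.4% of all genes (11.2% higher, 9.19% lower). The median log2 fold change of the members was 0.15, against -0.0065 over all genes.

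Itgb1 was at 616.3, 715.3, 638.0 and 638.3 CPM in splenic WT mice and at 914.5, 1171, 1030 and 1250 CPM in splenic CD25 KO mice. All CD25 KO values exceeded the highest WT value, for a 1.68-fold increase (log2 fold change 0.74 ± 0.083, edgeR adjusted p = 1.77e-05). Both chains of αvβ8, the integrin with which Tregs activate latent TGF-β, rose with it. Itgb8 was at 92.1, 88.5, 79.1 and 75.4 CPM in WT and at 109.4, 146.4, 118.5 and 128.8 CPM in CD25 KO mice. The increase was 1.50-fold (0.59 ± 0.0835, edgeR adjusted p = 0.000153). Itgav was at 151.0, 145.8, 137.0 and 143.5 CPM in WT and at 174.2, 204.0, 187.7 and 202.3 CPM in CD25 KO mice. It rose 1.33-fold (0.41 ± 0.0576, edgeR adjusted p = 0.000128).

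Itgal, the α chain of LFA-1, was at 1082, 1088, 1020 and 1028 CPM in WT and at 1257, 1263, 1231 and 1156 CPM in CD25 KO mice. This was the smallest of the called differences among the members, 1.16-fold (0.22 ± 0.0524, edgeR adjusted p = 0.00837). It lost its call when any 1 of 6 of the 8 mice was left out (all but WT mouse 1 and CD25 KO mouse 4; edgeR adjusted p from 0.0141 to 0.0379) and with upper-quartile normalization (edgeR adjusted p = 0.0204). Itga6 was at 272.1, 269.7, 317.3 and 294.6 CPM in WT and at 224.4, 233.5, 212.8 and 239.2 CPM in CD25 KO mice. It fell 1.27-fold (-0.34 ± 0.0595, edgeR adjusted p = 0.000868), with no overlap. When all 18 samples shared 1 fit, the splenic calls of Itga6, Itgb8 and Itgal were lost (edgeR adjusted p = 0.0321, 0.0328 and 0.0507).

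Itga4, Itgb3, Itgb7, Itgae and Itgb2 did not pass in the spleen. Itgae was at 151.4, 123.8, 107.0 and 131.6 CPM in WT and at 136.6, 134.8, 130.9 and 132.4 CPM in CD25 KO mice, so that the CD25 KO values lay within the WT range (log2 fold change 0.06 ± 0.0788, edgeR adjusted p = 0.675). Itga4 had a log2 fold change of 0.16 ± 0.0717, Itgb3 of 0.15 ± 0.0751, Itgb7 of -0.12 ± 0.0585 and Itgb2 of -0.03 ± 0.0481, with edgeR adjusted p-values from 0.142 to 0.713. Itga4 ranged from 907.5 to 1035 CPM in WT and from 946.3 to 1225 CPM in CD25 KO mice, and Itgb7 from 553.6 to 658 and from 541.4 to 595.3 CPM. Itgb2 ranged from 512.7 to 551.1 and from 513.9 to 545.1 CPM. The WT and CD25 KO ranges of all 5 overlapped.

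In the spleen the summed levels of some lists of markers of other cells differed between genotypes, while single markers of a list did not all move together. The 8 B cell markers summed to 36 to 42.1 CPM in WT and 45.3 to 55.2 CPM in CD25 KO mice. Of the 5 tested, 2 passed, Cd22 and Pax5, both higher, where 9.45% of all genes passed. Cd79a was lower (-0.45, edgeR adjusted p = 0.032) and, like Cd79b (0.02) and Cr2 (0.35), did not pass. The 7 NK and CD8 T cell markers summed to 19 to 24.1 and 29.6 to 34 CPM, with Klrb1c higher among 5 tested and Ncr1 at 0 in every splenic sample. The myeloid list overlapped, at 21.9 to 31.7 CPM in WT and 27.7 to 37.9 CPM in CD25 KO mice. Of its 5 genes tested Lyz2 rose, the other 4 (Csf1r, Adgre1, Cd68 and Mpeg1, from -0.82 to 0.24) did not pass, and Ly6g was at 0 throughout. The stromal, endothelial and epithelial markers summed to 179 to 195 and 139 to 167 CPM, with Krt5 and Krt8 at 0 throughout. Of these 10 markers, 7 were at or under 3 counts in every splenic WT sample, and 2 in every splenic CD25 KO sample. Of 3 tested Pecam1 fell (-0.37), and Epcam (0.39) and Col1a1 (0.35) did not pass. In the thymus the summed levels of the genotypes overlapped for immature thymocyte (68.7 to 223 CPM in WT and 79.4 to 152 CPM in CD25 KO mice), B cell (15.7 to 19.3 and 14.6 to 21.4 CPM) and myeloid markers (19.6 to 79.9 and 23.2 to 68.1 CPM). The platelet list, relevant because platelets carry β3, summed to 9.98 to 14.5 CPM in thymic WT and 14.1 to 20.5 CPM in thymic CD25 KO mice, and to 13.6 to 17 and 11.9 to 14.5 CPM in the spleen. Its member Itga2b, the αIIb partner of β3, was at 0.79 in the thymus (edgeR adjusted p = 0.0104) and -0.24 in the spleen. The part of these cells in the integrin values was not tested.

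The differences between CD25 KO and WT Tregs in the tissues were then compared in a single fit of all 18 samples. The difference, spleen minus thymus, passed FDR < 0.01 for 2 of 10 members, compared with 6.98% of 18686 genes. Both were higher in the spleen, as were 4.5% of all genes, while 2.49% were lower. For Itgb1 it was 1.54 ± 0.111 on the log2 scale (edgeR adjusted p = 4.37e-08), with a decrease in all 5 thymic and an increase in all 4 splenic CD25 KO mice relative to the WT ranges. For Itgae it was 1.45 ± 0.293 (edgeR adjusted p = 0.00235). Both calls held in all 25 alternatives run. Itga4 (-0.57 ± 0.154), Itgav (0.35 ± 0.105) and Itgb3 (0.59 ± 0.183) had edgeR adjusted p-values of 0.0159, 0.0261 and 0.0319 and were not called. Itga6 had nearly the same log2 fold change in both tissues, and its difference was 0.02 ± 0.132 (edgeR adjusted p = 0.936).

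**Figure D3:**
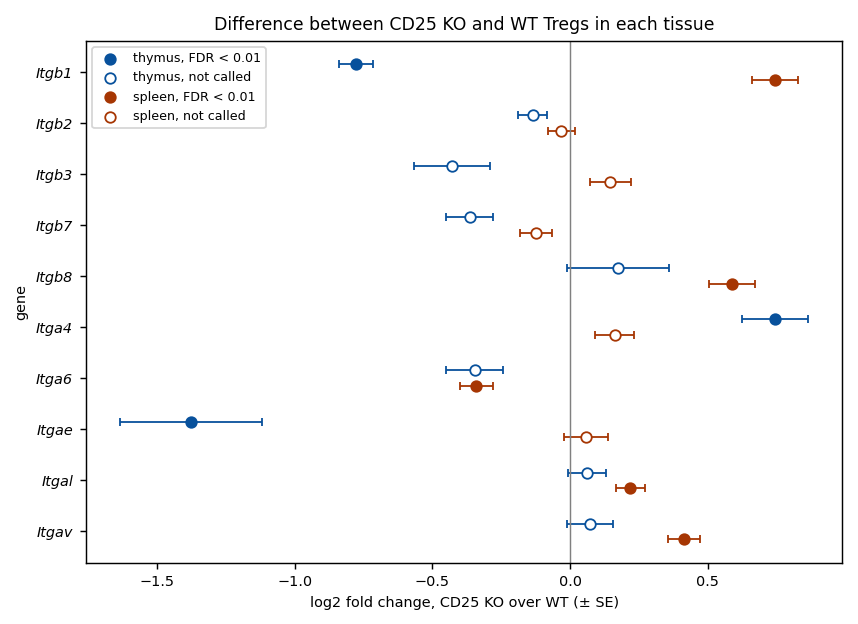
Log2 fold change of CD25 KO over WT for each integrin chain (points) with its SE (whiskers), in the thymus and in the spleen; filled points passed FDR < 0.01. Itgb1 is at -0.78 in thymic and 0.74 in splenic Tregs, and Itga6 is near -0.34 in both.

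Between the WT groups, 8 of the 10 chains differed, 7 of them higher in splenic than in thymic Tregs, where 40.4% of 18686 genes differed (21% higher, 19.5% lower). Itgb1 was 4.03-fold higher (2.01 ± 0.0791 on the log2 scale, edgeR adjusted p = 4.86e-14) and Itgae 2.83-fold higher (1.50 ± 0.203, edgeR adjusted p = 3.42e-06). Itga4 (2.19-fold), Itgb7 (1.76-fold), Itgav (1.59-fold), Itga6 (1.30-fold) and Itgal (1.27-fold) were also higher, and these 7 had no overlap of their ranges, compared with 46% of all genes (24% higher, 22.1% lower). Itgb3 was lower in the spleen (-0.51 ± 0.13, edgeR adjusted p = 0.00259), although its ranges overlapped (70.2 to 89.3 and 87.4 to 155.4 CPM). Itgb2 (-0.04 ± 0.0534) and Itgb8 (0.15 ± 0.161) did not pass. The call of Itga6 was lost without thymic WT mouse 3, thymic WT mouse 5 or splenic WT mouse 3, and that of Itgb3 without splenic WT mouse 1.

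Because chains work in pairs, the ratio of partner chains was taken within each mouse, which does not depend on how libraries are scaled. Itgb7/Itgb1 and Itgb8/Itgb3 are not pairs, but set the β partners of α4 and of αv against each other. A trend of a library with GC content does not cancel in such a ratio. The GC content was 41.1% for Itga4, 44.8% for Itgb1 and 58.0% for Itgb7, and the part of the GC trend in the ratios was not tested. For 9 ratios in 2 tissues, 18 two-sided exact permutation tests were made. The smallest p that the design allows is 0.00794 in the thymus and 0.0286 in the spleen. In the thymus Itga4/Itgb1 rose from 0.793 (0.649 to 0.994) in WT to 2.31 (1.89 to 2.65) in CD25 KO mice. Itga4/Itgb7 rose from 0.247 (0.179 to 0.309) to 0.543 (0.438 to 0.757), and Itgae/Itgb7 fell from 0.0774 (0.0649 to 0.0892) to 0.0354 (0.0229 to 0.0559). These values are geometric means and ranges of counts per length. All 3 had no overlap and an exact p of 0.00794 (adjusted p = 0.0476). Leaving out thymic WT mouse 1, 2, 3 or 5 took all 3 to an adjusted p of 0.0514 to 0.0571. With a mouse fewer the smallest possible p is larger, so this loss cannot show dependence on any 1 mouse. In these fits the log2 difference of Itga4/Itgb1 was 1.469 to 1.623 (1.541 with all mice). That of Itga4/Itgb7 was 1.021 to 1.217 (1.136), and that of Itgae/Itgb7 was -1.194 to -1.104 (-1.13).

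The ratio of the 2 β partners of α4 did not pass in either tissue. Itgb7/Itgb1 was 3.21 (2.93 to 3.62) in thymic WT and 4.25 (3.31 to 4.79) in thymic CD25 KO mice (exact p = 0.0159, adjusted p = 0.0515). In the spleen it was 1.40 (1.32 to 1.48) in WT and 0.772 (0.68 to 0.9) in CD25 KO mice (exact p = 0.0286, adjusted p = 0.0515), so that per length Itgb7 exceeded Itgb1 in every splenic WT mouse and in no splenic CD25 KO mouse. Splenic Itga4/Itgb1 was 0.435 and 0.291, Itga6/Itgb1 0.200 and 0.0948, and Itgal/Itgb2 0.910 and 1.08 in WT and CD25 KO mice. Splenic Itgav/Itgb8 was 1.78 (1.69 to 1.96) and 1.58 (1.43 to 1.64). These 4 ratios had no overlap between genotypes, each with an exact p of 0.0286, the smallest possible, and an adjusted p of 0.0515. The other ratios had adjusted p-values from 0.0515 to 0.492.

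**Figure D4:**
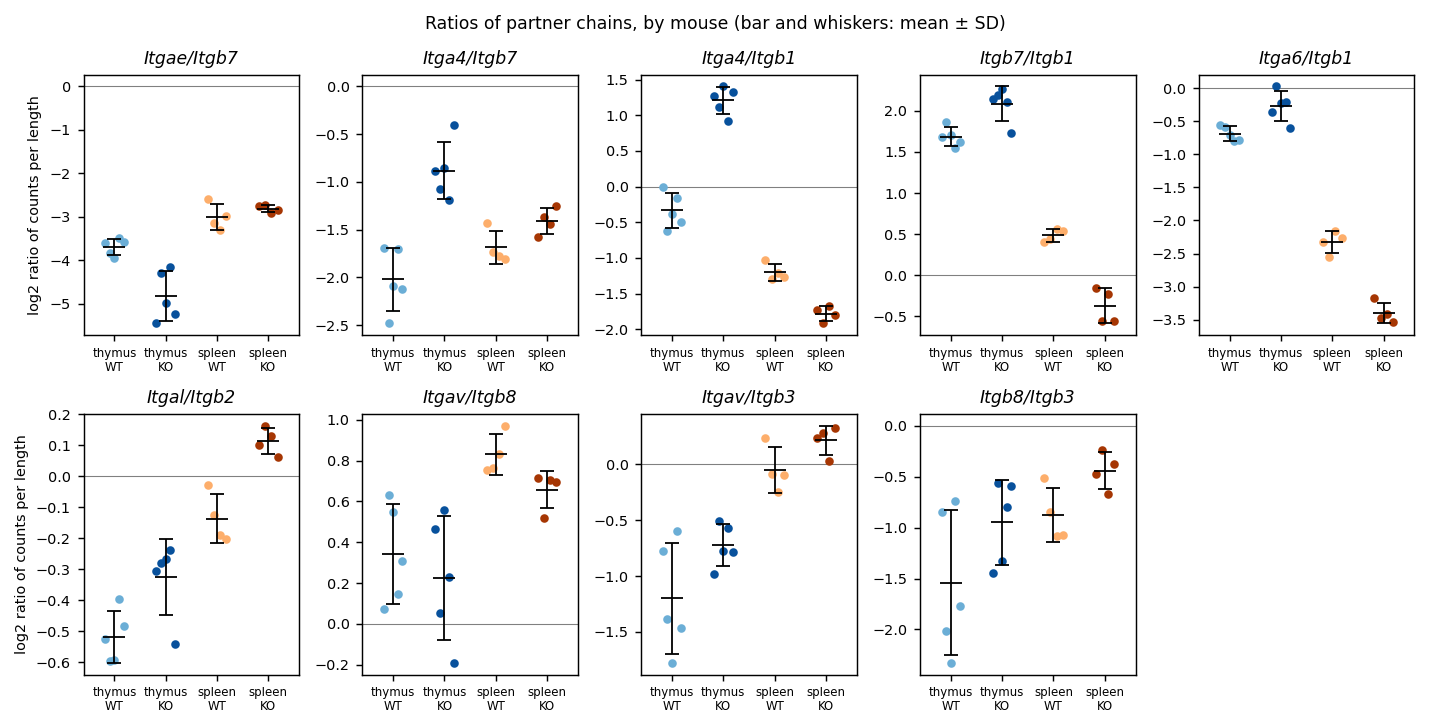
Log2 ratio of counts per length of partner chains, or of β chains that share an α partner (Itgb7/Itgb1 and Itgb8/Itgb3), in every mouse (points). Bar and whiskers give the mean and SD of the group, and the line at 0 marks equal levels. Itga4/Itgb1 is above 0 in all 5 thymic CD25 KO mice and below 0 in the other groups, and Itgb7/Itgb1 is below 0 in the 4 splenic CD25 KO mice alone.

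Of the other integrin chains, 1 of 11 tested passed in the thymus, against 6.16% of all genes, and 5 of 12 in the spleen, against 9.45%. Itga9, which pairs with β1 and binds tenascin and VCAM-1, rose in the thymus, from 15.8 ± 1.96 to 30.3 ± 6.58 CPM (0.95 ± 0.144, edgeR adjusted p = 0.00213). In the spleen, Itga7 (1.02 ± 0.12), Itgb5 (1.06 ± 0.136) and Itga1 (0.84 ± 0.2), which are laminin, vitronectin and collagen receptor chains, rose, as did Itga2, and Itga5, the fibronectin receptor α chain, fell (-0.59 ± 0.104). The edgeR adjusted p-values of these 5 ran from 2.86e-05 to 0.0079, and their mean levels were at most 16.2 CPM in the spleen. The call of Itga1 was lost in 11 of 17 alternatives. The median log2 fold change of this list was 0.077 in thymic and -0.175 in splenic Tregs.

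Genes for integrin ligands and counter-receptors also changed in the sorted cells. In the thymus 4 of 14 tested passed (6.16% of all genes), all lower (2.99%). In the spleen 7 of 17 passed (9.45%), of which 6 were higher (5.9% of all genes) and 1 lower (3.55%). Icam1, the ligand of LFA-1, fell in the thymus from 35.0 ± 3.05 to 24.2 ± 2.30 CPM (-0.52 ± 0.084, edgeR adjusted p = 0.0027) and rose in the spleen from 56.1 ± 0.806 to 70.4 ± 3.20 CPM (0.33 ± 0.0513, edgeR adjusted p = 0.00034). Lamc1, a laminin chain, showed the same pair of directions, -1.73 ± 0.136 in the thymus and 0.75 ± 0.0676 in the spleen. Lama5, another laminin chain, fell in the thymus (-1.46 ± 0.207).

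Among the low-level matrix ligands of αv and β1 integrins, Tnc (1.56 ± 0.271), Thbs1 (1.33 ± 0.251) and Tgfb3 (0.89 ± 0.211) rose in the spleen. Spp1, osteopontin, rose as well, but from at most 0.197 to between 0.533 and 2.35 CPM, with 1 to 5 counts in the WT libraries. Icam2 (0.04 and 0.09), Cdh1, the ligand of αEβ7 (0.66 and -0.52), and Vcam1, the ligand of VLA-4 (-1.82 and 0.20), did not pass in the thymus or the spleen, and Madcam1, the ligand of α4β7, was under the count filter in both, at most 0.586 CPM in any sample. The ligand list had a median log2 fold change of -0.102 in thymic and 0.2 in splenic Tregs.

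Lrrc32 encodes GARP, which holds latent TGF-β on the Treg surface where αvβ8 acts on it. It fell in both tissues, from 303.6 ± 41.9 to 122.9 ± 52.3 CPM in the thymus (-1.29 ± 0.241, edgeR adjusted p = 0.00497) and from 277.9 ± 17.8 to 110.8 ± 12.9 CPM in the spleen (-1.33 ± 0.0747, edgeR adjusted p = 3.1e-08). Splenic Itgav and Itgb8 rose in the same mice. Tgfb1 itself was at -0.34 ± 0.0754 in the thymus (edgeR adjusted p = 0.0101) and -0.17 ± 0.0555 in the spleen (edgeR adjusted p = 0.0506). Of the TGF-β pathway list, 3 of 18 tested passed in the thymus, where 6.16% of all genes did, all lower (2.99%): Lrrc32, Furin, a protease that processes pro-TGF-β (-0.62 ± 0.115), and Runx3, a transcription factor of the pathway (-1.70 ± 0.189). In the spleen 5 of 19 passed, where 9.45% of all genes did, with Tgfb3 and Runx3 (0.30 ± 0.053) higher and Lrrc32, the receptor Tgfbr1 (-0.30 ± 0.0678) and the inhibitor Smad7 (-0.28 ± 0.0545) lower. The list had medians of -0.0523 and -0.0392.

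Of the genes that activate integrins from inside the cell, 2 of 21 tested passed in the thymus (6.16% of all genes) and 3 of 19 in the spleen (9.45%). Tln1, the main talin of T cells, had log2 fold changes of -0.38 ± 0.107 in the thymus (edgeR adjusted p = 0.0241) and -0.02 ± 0.049 in the spleen. Fermt3, kindlin-3, was at -0.19 ± 0.0628 and -0.08 ± 0.0496, and neither gene passed in either tissue. In the thymus the called genes fell: Tln2, a second talin (from 15.2 ± 2.74 to 1.70 ± 0.963 CPM, -3.13 ± 0.341, edgeR adjusted p = 0.000339), and Cyth1, cytohesin-1, a regulator of LFA-1 (-0.24 ± 0.0489). In the spleen Rap1a, the small GTPase that drives integrin activation, rose (0.36 ± 0.0776), and Rasgrp1 (-0.34 ± 0.0498) and Cyth1 (-0.26 ± 0.0494) fell. The thymic call of Cyth1 was lost in 17 of 22 alternatives. Medians of the list were 0.0028 and 0.0122.

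Of the adaptors and kinases that act at the integrin tail, 2 of 23 tested passed in the thymus (6.16% of all genes) and 5 of 23 in the spleen (9.45%). Lims1, the PINCH adaptor, rose in both (0.44 ± 0.0782 and 0.32 ± 0.0551), and the kinase Src fell in both (-0.94 ± 0.195 and -0.47 ± 0.0916). In the spleen Ptk2, focal adhesion kinase, fell from 6.62 ± 0.456 to 3.43 ± 0.407 CPM (-0.95 ± 0.131). Actn1, α-actinin (-0.52 ± 0.0786), and Tgfb1i1, the Hic-5 adaptor (-0.89 ± 0.155), also fell there. Of the tetraspanins and other membrane partners of integrins, 2 of 13 tested passed in the thymus (6.16% of all genes), both lower (2.99%), Cd82 (-0.55) and Cd81 (-0.34). In the spleen 2 of 12 passed (9.45%), both higher (5.9%), Cd53 (0.48) and Cd82 (0.47). Medians of the adaptor list were -0.0592 and 0.0075, and of the membrane partners -0.116 and 0.12. The thymic calls of Src and Cd82 were lost in 12 and 11 of 22 alternatives.

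Of 14 central and effector Treg genes that the study named, and so chose on these samples, all 14 passed in the spleen (10 higher, 4 lower) and 6 of 13 tested in the thymus, all lower. Their median log2 fold changes were 0.758 and -0.636. Over all genes, 9.45% passed in the spleen (5.9% higher, 3.55% lower) and 6.16% in the thymus (2.99% lower). In the spleen Gzmb, granzyme B (3.41 ± 0.153), Il10 (2.02 ± 0.206) and Fgl2, a suppressive effector protein (1.33 ± 0.0886), had the largest increases, and Ly6c1 (-1.30 ± 0.183) and the survival gene Bcl2 (-1.01 ± 0.0583) the largest decreases. In the thymus Tigit, an inhibitory receptor, fell by 2.58 ± 0.232 and Fgl2 by 1.97 ± 0.324 on the log2 scale. Klrg1, a marker of effector cells, had 18 to 91 counts in thymic WT and 0 to 1 count in thymic CD25 KO mice.

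The genes whose pattern over the 18 samples was most like that of a called member, after the mean of each tissue was subtracted, were found among 9460 genes. Pearson's r is given as a description, since the samples share genotype and libraries. Itgb1 was most like S100a10 (r = 0.965) and Plekhb2 (0.949). Itgae was most like Capg (0.98) and Pear1 (0.977), and Itga4 like Pggt1b (0.964) and Upf2 (0.961). Adgre5 (0.944) was among the 2 genes most like Itga6. Itgav was most like Gpm6b (0.946) and Raph1 (0.908), Itgb8 like Slc4a7 (0.913) and Zfp52 (0.894), and Itgal like Relb (0.904) and Spata13 (0.895). No member was among the 2 most alike genes of another.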

How the data were processed

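RNA-seq was done on sorted Tregs of 18 mice. Per the labels and the study's methods, libraries were made from rRNA-depleted total RNA, the authors aligned the paired-end reads to GRCm38 (mm10) with STAR 2.5.0b and counted them per gene of GENCODE M13 with featureCounts 1.5.0. The deposited values are raw counts per gene with no normalization, and all columns were assigned to samples. Symbols, positions and exonic lengths came from GENCODE M21, which gave a symbol for 50376 of 50600 identifiers. Promoter windows came from RefSeq (GRCm38.p6).

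In R 4.3.3, counts were filtered with filterByExpr and scaled by TMM, and groups were compared with the quasi-likelihood test of edgeR 4.0.16, with Benjamini-Hochberg adjustment over all genes tested. Calls are at FDR < 0.01. Each tissue had its own fit, and the difference of effects and the WT groups were tested in 1 fit of all 18 samples. CPM are counts scaled to the library size with its TMM factor, and SEs were derived from the F statistic. The study names DESeq2, and DESeq2 1.42.0 was an alternative. The others were RLE and upper-quartile scaling, no filter, at least 10 counts in every sample, 1 fit of all samples, a minimum fold of 1.5, FDR < 0.05, removal of the GC trend, the thymic mouse number as a replicate block with and without the GC correction, and leaving out each mouse. A fit without thymic CD25 KO mice 2 and 4 was added after seeing the data. Ratios of partner chains were compared by two-sided exact permutation tests.

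Sequencing depth was 17239774 to 32639570 counts per sample, and 3 counts, the floor of detection, were at most 0.163 CPM in the thymus and 0.129 CPM in the spleen. Reads carry no molecular identifiers, so floors cover counting error only. The procedure was tested on simulated counts.

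The members and lists were chosen with earlier results of these data known. All 10 members are named. Of each list the text names up to 3 called genes with the largest change in each direction and tissue, and the genes that pair directly with a member (Lrrc32, Tgfb1, Cdh1, Icam1, Icam2, Vcam1, Madcam1, Tln1, Fermt3). Itga2, Itga2b, Bcar1, Dok1, Bsg, Skil and the cell type markers named were chosen after their values were seen. A gene of the study's list and a gene most like a member are not reported here.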

Additional observations from a re-analysis of the deposited data

Results flagged for a closer look

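Among 76 groups of 4 or 5 values tested with Dixon's criterion, 6 held a value far from the others, where chance would give 3.8. In thymic CD25 KO Tregs, Itgb1 was at 82.5 CPM in mouse 3 (93.3 to 96.8 CPM in the others) and Itgal at 710.4 CPM in mouse 5 (871.8 to 914 CPM), which also stood apart in Itgal/Itgb2 at 0.687 (0.81 to 0.847). Itgb7 was at 388.7 CPM in thymic WT mouse 2 (337.3 to 347.6 CPM). Itga4/Itgb7 was 0.371 in splenic WT mouse 1 (0.287 to 0.301), and Itgav/Itgb8 was 1.43 in splenic CD25 KO mouse 2 (1.62 to 1.64).

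The CD25 KO effect differed between the tissues in edgeR's test of the difference (FDR < 0.01) for the genes below, given as the log2 fold change in the spleen minus that in the thymus. Among the members these were Itgb1 (1.54) and Itgae (1.45). Among the other integrin chains they were Itga7 (1.98), Itgb5 (1.65), Itga9 (-1.10) and Itga2b (-1.01). Of the activation, adaptor and membrane partner genes they were Tln2 (2.97), Rasgrp1 (-0.49), Ptk2 (-0.999), Actn1 (-0.50), Bcar1 (3.18), Dok1 (0.43), Cd81 (0.62), Cd82 (1.04) and Bsg (0.38). Of the ligand and TGF-β genes they were Icam1 (0.86), Lamc1 (2.50), Furin (0.60), Runx3 (2.01) and Skil (-0.45). Of the study's central and effector genes named above, Gzmb (4.70), Tigit (3.86), Il10 (3.46), Fgl2 (3.32) and Bcl2 (-1.004) differed as well, as did Klrg1, for which no fold is given because thymic CD25 KO mice had at most 1 count. Tln2 was at most 0.775 CPM in any splenic sample, and Bcar1 at most 1.28 CPM in any sample. Itga2b, Bcar1, Dok1, Bsg and Skil are outside the rule for named genes, and the alternatives were not run for them. Of 25 alternatives, 12 lost the call of Itga9, 13 those of Tln2 and of Furin, 11 that of Actn1 and 16 that of Cd81.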

How the results depend on the processing

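Calls by edgeR at FDR < 0.01 numbered 1047 genes and 3 members in the thymus, 1651 and 5 in splenic Tregs, 1305 and 2 for the difference between tissues, and 7557 and 8 between the WT groups. DESeq2 called 2673 genes and 4 members (Itgb7 added) in the thymus, and 2139 genes and 3 members (Itga4 added) for the difference. One fit of all 18 samples called 2881 genes and 5 members in the thymus and 795 genes and 2 members (Itgb1 and Itgav) in the spleen. A minimum fold difference of 1.5 (edgeR glmTreat) left 46 thymic and 169 splenic genes and 0 members in each, with adjusted p of 0.117 and 0.334 for Itgb1. FDR < 0.05 gave 3951 genes and 6 members in the thymus, 3001 genes in the spleen, and 3149 genes and 5 members for the difference. Without thymic CD25 KO mice 2 and 4, 2008 genes and 5 members were called in the thymus (Itgb7 and Itga6 added) and 2307 genes for the difference. With upper-quartile scaling the thymic calls were 808 higher and 440 lower (539 and 508 by TMM), and those of the difference 616 and 669 (840 and 465, or 727 and 652 with the GC trend removed). The cause of these changes was not tested.

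Leaving out 1 mouse gave 371 (without thymic CD25 KO mouse 3) to 1087 genes and 2 to 4 members in the thymus, 1099 (without splenic WT mouse 3) to 1723 genes and 4 to 5 members in the spleen, 817 (without splenic CD25 KO mouse 2) to 1489 genes and 2 to 4 members for the difference (4 without thymic WT mouse 4), and 6690 to 8040 genes and 7 to 8 members between the WT groups. Thymic counts fell to between 371 and 428 without WT mouse 2, 3 or 5 or CD25 KO mouse 1 or 3. Partner ratios with an adjusted p under 0.05 ranged from 0 to 13, with 12 without thymic WT mouse 4, 11 without thymic CD25 KO mouse 5 and 13 without splenic WT mouse 1. Leaving out a mouse also raises the smallest exact p possible in its tissue, so these counts do not measure dependence on single mice alone.

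Signs turned only for values that had not passed. With the GC trend removed, thymic Itgb8 was -0.0503 and Itgav -0.0363, and the difference of Itga6 was -0.0414. Splenic Itgae ranged from -0.0213 (without splenic WT mouse 3) to 0.142 when 1 mouse was left out. The difference of Itga6, 0.02, was -0.0538 with upper-quartile scaling and ranged from -0.0531 to 0.119 when 1 mouse was left out, below 0 in 7 of 18 such fits (thymic CD25 KO mice 1, 3 and 5, splenic WT mice 1 and 2, splenic CD25 KO mice 2 and 4).

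The thymic titles number the mice 1 to 5 in both genotypes. With that number as a replicate block, 209 genes and 2 members were called (232 and 2 with the GC trend removed as well), and Itga4 was 0.76 with an edgeR adjusted p of 0.0113. With both, Itgb8 was -0.0434 and Itgav -0.0374, and Itgae was -1.39 with an adjusted p of 0.01. Correlations between same-numbered mice ran from -0.238 to 0.144, and only mouse 1 correlated best with its own number. So few correlations cannot decide whether same-numbered mice shared more than a number.

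Among list genes the text names, calls were lost in 6 (Lrrc32), 5 (Icam1), 8 (Lims1), 5 (Furin) and 13 (Cd81) of 22 thymic alternatives, and in 8 (Rap1a), 8 (Tgfbr1) and 9 (Tgfb3) of 17 splenic ones.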
